A study of Mus musculus with 8 samples.

Results

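A set of 9 genes of the complement system were followed, taken by symbol: the C1q chains C1qa, C1qb and C1qc, the components C3, C4b and C6, properdin (Cfp), and the receptors C3ar1 and C5ar1. All 9 were present among the 15283 genes of the whole-liver table and among the 22578 genes of the nucleus table. The livers came from mice fed a diet that models metabolic dysfunction-associated steatohepatitis (MASH) for 30 weeks. Control mice carried 2 floxed alleles of Tgfbr1, the type I receptor for TGF-beta (flox/flox), and no Cre is listed for them. Tgfbr1 MKO mice carried the same floxed alleles with LysMcre (flox/flox; LysMcre), a Cre recombinase driven from the Lyz2 locus, which is active in macrophages, monocytes and neutrophils. Whole-liver RNA was sequenced from 3 control and 3 MKO samples, and nuclei were sequenced from 1 pool of 3 livers per genotype. The strain, sex and age of the mice are not given in the labels, and only replicate numbers separate the bulk libraries, so the p-values reflect the spread among these samples, which may be technical.

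Complement is a cascade of plasma proteins and cell-surface receptors that marks particles for uptake, recruits leukocytes and can open pores in membranes. C1q starts the classical pathway, C4b forms part of the convertase that cleaves C3, properdin stabilises the convertase of the alternative pathway, and C6 joins the terminal pore complex. The liver is the main source of plasma complement: hepatocytes secrete C3, C4 and most other soluble components, while C1q and properdin come mainly from macrophages and other myeloid cells.

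The 3 C1q genes lay side by side on the minus strand of mouse chromosome 4 (mm10, GENCODE vM21), within 18675 bases: C1qb at chr4:136880129-136886187, C1qc at chr4:136889804-136893065 and C1qa at chr4:136895917-136898803. The nearest protein-coding neighbours were Ephb2, 44141 bases away on one side, and Epha8, 30616 bases away on the other. The remaining members were spread over the genome: Cfp at chrX:20925454-20931555, C3 at chr17:57203970-57228136, C4b at chr17:34728380-34743882, C3ar1 at chr6:122847138-122856161 and C5ar1 at chr7:16246743-16259540 on the minus strand, and C6 at chr15:4727175-4814967 on the plus strand. All 9 are protein-coding genes.

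The promoter-side sequence of 4 members is shown because C1qb, C1qc and Cfp were called higher in MKO liver and C3, the most abundant member, was not. RefSeq promoter sequences (GRCm38.p6, the same assembly as mm10) matched 7 of the 9 members by symbol, all but C1qa and C4b. Each run is printed 5′ to 3′ on the minus strand and ends at the base before the annotated gene or RefSeq start: C1qb at chr4:136886201-136886450, C1qc at chr4:136893066-136893164, Cfp at chrX:20931556-20931805 and C3 at chr17:57228137-57228386. Capitals mark matches, on either strand, to GAGGAA, a core recognised by the myeloid factor PU.1, or TTNNGNAA, a core recognised by C/EBP factors.
C1qb: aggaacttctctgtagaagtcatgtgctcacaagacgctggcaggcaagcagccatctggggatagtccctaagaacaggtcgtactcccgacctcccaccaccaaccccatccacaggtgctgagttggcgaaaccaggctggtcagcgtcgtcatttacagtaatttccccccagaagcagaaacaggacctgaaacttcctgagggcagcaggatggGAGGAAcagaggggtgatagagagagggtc
C1qc: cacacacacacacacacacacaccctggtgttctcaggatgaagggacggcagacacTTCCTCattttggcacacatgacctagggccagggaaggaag
Cfp: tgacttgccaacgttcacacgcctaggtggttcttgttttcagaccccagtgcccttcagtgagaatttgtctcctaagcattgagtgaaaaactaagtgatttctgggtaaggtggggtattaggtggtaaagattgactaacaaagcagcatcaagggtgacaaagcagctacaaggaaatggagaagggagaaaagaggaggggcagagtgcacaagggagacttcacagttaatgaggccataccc
C3: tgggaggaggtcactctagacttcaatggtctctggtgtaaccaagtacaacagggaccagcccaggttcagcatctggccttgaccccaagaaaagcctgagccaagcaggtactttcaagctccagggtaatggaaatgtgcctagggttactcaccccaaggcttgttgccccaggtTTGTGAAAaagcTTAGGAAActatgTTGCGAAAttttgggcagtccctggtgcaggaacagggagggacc

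GAGGAA stood once in the C1qb run, 30 to 25 bases before the RefSeq start, and once in the C1qc run, as its reverse complement TTCCTC. It was in neither the Cfp nor the C3 run. TTNNGNAA stood at 3 places in the C3 run, 70 to 63, 58 to 51 and 45 to 38 bases before the start. The full 250 bases before the RefSeq start of C1qc also held TTNNGNAA, 81 to 74 bases before it, within the annotated gene and so outside the printed run. The third C3 place matched on both strands, and the C3 places did not overlap each other. Of the matched members not printed, the full 250 bases of C6 held TTNNGNAA 2 times and those of C5ar1 1 time. C3ar1 held neither core, and GAGGAA was in none of these. In the 250 bases before the start of 27025 RefSeq promoters, 23.1% held GAGGAA, 36.9% held TTNNGNAA and 0.174% held GTCTAGAC, a SMAD element, which none of the 7 matched members held. A match is a description of the letters and shows no binding.

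In whole liver, the members fell on both sides of the test threshold. The C1q chains and properdin rose in MKO liver by 2.64-fold to 3.74-fold, while C3, C4b, C6, C3ar1 and C5ar1 did not pass the test. Failing the test does not show that a member was unchanged. On simulated libraries limma recovered 38 of 67 genes changed 2-fold, and C5ar1 was not called at a log2 difference of 0.83. Values are the authors' normalised read counts, and the test was limma on log2(value + 1) over 15249 genes with Benjamini-Hochberg adjustment, called under 0.05. By this rule 4 of 9 members were called higher, where 2.96% of all genes tested were, and 0 of 9 lower, where 0.0853% were. At an unadjusted limma p under 0.05 the counts were 5 higher and 0 lower, with the share of all genes at that p not counted. The edgeR and DESeq2 tests on recovered reads each gave 4 higher and 0 lower. In the 4 called members every MKO library lay above every control library, as in 10.4% of all genes tested. The median log2 fold change of the members was 0.83, beside -0.02 over all genes tested. In a whole-liver library, more cells of a type and more RNA per cell cannot be told apart.

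**Figure D1:**
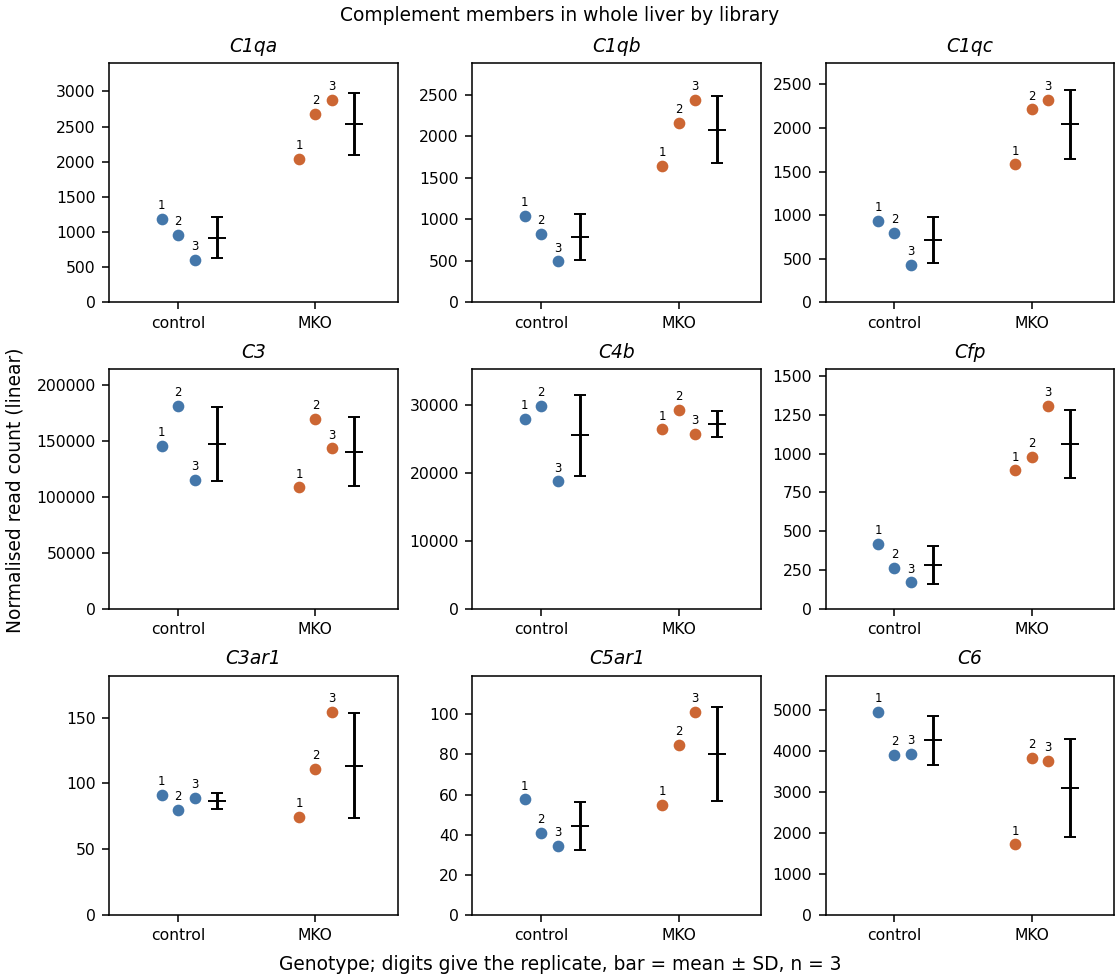
Normalised read count (linear axis from 0) of each member in the 3 control and 3 MKO liver libraries, digits giving the replicate and bars the mean ± SD. The C1q chains and Cfp are higher in all 3 MKO libraries than in all 3 control libraries, while C3, C4b, C3ar1 and C5ar1 overlap.

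C1qa encodes the A chain of C1q. Its normalised read count was 1190, 964 and 607 in control libraries 1 to 3 and 2041, 2678 and 2883 in MKO libraries 1 to 3. Every MKO library lay above every control library, and the lowest MKO value exceeded the highest control value. The mean went from 920 ± 294 to 2534 ± 439 (SD, n = 3 each). The difference was 1.499 ± 0.24 on the log2 scale (SE, adjusted p = 0.0130 by limma).

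C1qb, the B chain, was at 1045, 823 and 495 in control and 1643, 2162 and 2443 in MKO libraries. C1qc, the C chain, was at 938, 795 and 427 in control and 1583, 2213 and 2324 in MKO libraries. The libraries took the same order for all 3 chains, with control 3 lowest and MKO 3 highest, and the groups did not overlap. C1qb rose by 1.45 ± 0.26 on the log2 scale (limma adjusted p = 0.0222) and C1qc by 1.56 ± 0.28 (limma adjusted p = 0.0213).

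The balance among the chains differed little between libraries. C1qb was between 0.805 and 0.878 times C1qa, and C1qc between 0.703 and 0.826 times C1qa, the latter lowest in control 3. The summed C1q level was 3173, 2581 and 1529 in control and 5267, 7053 and 7650 in MKO libraries. The flanking gene Ephb2, an ephrin receptor outside complement, was at 23.9, 16.8 and 46.3 in control and 9.76, 22.4 and 17.3 in MKO libraries, and did not pass the test (limma adjusted p = 0.599).

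Properdin had the largest fold change among the members. Cfp was at 416, 262 and 170 in control and 892, 978 and 1308 in MKO libraries. All 3 MKO libraries lay above the highest control library, and control 3 was again the lowest. Its mean went from 283 ± 124 to 1059 ± 219 (SD, n = 3 each). The difference was 1.98 ± 0.30 on the log2 scale (SE, adjusted p = 0.00966 by limma).

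Leaving out single libraries ended these calls. Without MKO replicate 2 the adjusted p was 0.0697 for C1qa, 0.104 for C1qb, 0.104 for C1qc and 0.0510 for Cfp. Without MKO replicate 3 it was 0.0676, 0.103, 0.101 and 0.0528 in the same order, so that 0 of 9 members were called in either case. Without control replicate 2, C1qb (0.0706) and C1qc (0.0598) lost the call and C1qa and Cfp held it. All 4 log2 fold changes stayed between 1.15 and 2.30 in the 6 such fits. The authors' deposited table also listed these 4 members as higher and none as lower at an adjusted p under 0.05.

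C3, the component on which all pathways converge, was at 145608, 181418 and 115201 in control and 108434, 170043 and 143297 in MKO libraries. The groups overlapped, with the highest value in control 2 and the lowest in MKO 1. The mean was 147409 ± 33145 in control and 140591 ± 30893 in MKO liver (SD, n = 3 each). On the log2 scale C3 differed by -0.07 ± 0.31 (adjusted p = 0.960 by limma), with a 95% interval from -0.77 to 0.63. Relative to Alb, the albumin gene and the most abundant hepatocyte marker used, C3 was at 14.9%, 13.3% and 11.8% in control and 10.6%, 16.1% and 12.4% in MKO libraries.

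C4b was at 27876, 29818 and 18726 in control and 26377, 29281 and 25722 in MKO libraries. The MKO libraries lay close together inside the range of the controls, whose lowest was control 3. On the log2 scale C4b differed by 0.12 ± 0.20 (adjusted p = 0.881 by limma), with a 95% interval from -0.35 to 0.58. Reads of C4b and its near-identical neighbour C4a may be split uncertainly. C4a made up 0.866% to 5.75% of the pair, and the summed pair changed by 0.10 on the log2 scale.

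C6, the terminal component among the members, was at 4941, 3901 and 3922 in control and 1721, 3821 and 3745 in MKO libraries. Every MKO library lay below every control library, as in 9.02% of all genes tested, but MKO 2 and MKO 3 were close to the lower controls. On the log2 scale C6 differed by -0.54 ± 0.29 (adjusted p = 0.522 by limma), or by -0.16 when MKO 1 was left out.

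The receptors were the scarcest members. C3ar1, which binds the C3 fragment that recruits leukocytes, was at 91.2, 79.8 and 88.7 in control and 74.5, 111 and 154 in MKO libraries. The MKO libraries fell on both sides of the controls, and the log2 difference was 0.32 ± 0.26 (adjusted p = 0.703 by limma, 95% interval from -0.27 to 0.92). It was 0.07 without MKO 3 and 0.59 without MKO 1. C5ar1, the receptor for the C5 fragment, was at 57.5, 40.9 and 34.5 in control and 54.9, 84.6 and 101 in MKO libraries. MKO 1 overlapped the controls and the other two lay above them. Its log2 difference was 0.83 ± 0.29 (adjusted p = 0.274 and unadjusted p = 0.0207 by limma, 95% interval from 0.16 to 1.498).

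Per kilobase of annotated exon, the order of levels in control liver was C3 (28662 ± 6445), C4b (4473 ± 1040), C6 (1196 ± 167), C1qa (885 ± 283), C1qb (724 ± 254), C1qc (373 ± 137), Cfp (163 ± 71.4), C3ar1 (20.1 ± 1.39) and C5ar1 (17.2 ± 4.63), each a normalised count per kilobase (SD, n = 3). The mean ± SD ranges overlapped between C6 and C1qa, between C1qa and C1qb, between C1qb and C1qc, and between the receptors. In MKO liver C1qa (2436 ± 422) and C1qb (1914 ± 373) stood above C6 (871 ± 335). The lengths are of all annotated exons joined, so a gene with a long rare isoform is placed too low.

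Macrophage transcripts as a class were higher in the same MKO libraries. Of 14 macrophage markers, none of them a member, 9 were called higher and 0 lower, with a median log2 fold change of 1.29, and none was at 0 in any library. Their summed level was 5210 to 8316 in control and 11057 to 17682 in MKO libraries. Mpeg1, which encodes a pore-forming protein of macrophages and was the most abundant of them, was at 2083, 1912 and 1038 in control and 2325, 3741 and 4236 in MKO libraries and did not pass the test (adjusted p = 0.137 by limma). Lyz2, the locus that carries the Cre, was the 1 marker with a log2 fold change below 0 (-0.44, adjusted p = 0.651 by limma). Of 9 Kupffer cell markers 4 were called higher (median 1.51, summed level 6748 to 10491 and 12761 to 17712), and of 14 hepatocyte markers 0 were called by limma, also at an unadjusted p under 0.05 (median -0.04). Other leukocyte lists were mixed: 3 of 13 T and NK cell markers were called higher (median 1.40, summed level 146 to 252 and 399 to 644), 3 of 7 dendritic cell markers higher, and of 9 monocyte markers 2 higher and 1 lower. Of 5 neutrophil markers 1 was called higher, and 0 of 8 B lineage and 0 of 6 plasmacytoid dendritic cell markers were called. The part of macrophage and other leukocyte RNA content in the C1q and Cfp results was not tested.

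Set against the macrophage markers of the same library, the members did not all differ in the same direction. The measure is log2(value + 1) of a member minus the mean log2(value + 1) of the 14 markers, compared by a two-sided exact permutation test whose smallest possible p is 0.1 with 3 against 3. The 14 include Lyz2, the Cre locus, whose negative fold change lowers the marker mean in MKO libraries and so raises these differences. A reference without Lyz2 was not computed. By that exact test C1qa was at 0.23 above control in MKO libraries (p = 0.2), C1qb at 0.18 (p = 0.4) and C1qc at 0.29 (p = 0.2), and the groups overlapped. With the median of the list in place of its mean, these differences took the other sign, at -0.21, -0.26 and -0.16.

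Cfp differed by 0.70 and the groups did not overlap, but against the median of the list it differed by 0.26 (p = 0.5, exact permutation test). The other 5 members lay lower relative to the markers in every MKO library: C3 by -1.34, C4b by -1.15, C6 by -1.81, C3ar1 by -0.95 and C5ar1 by -0.44. Each of these 6 had p = 0.1 by the exact permutation test, or 0.15 after Benjamini-Hochberg adjustment over the 9 members. The share of all genes without overlap on this subtracted scale was not counted, so the 6 have no background. The marker mean itself went from 8.30 in control to 9.57 in MKO libraries, so a gene unchanged in bulk comes out lower by subtraction alone. C3 and C4b, at -0.07 and 0.12 in the bulk fit, mostly restate that rise of the markers.

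**Figure D2:**
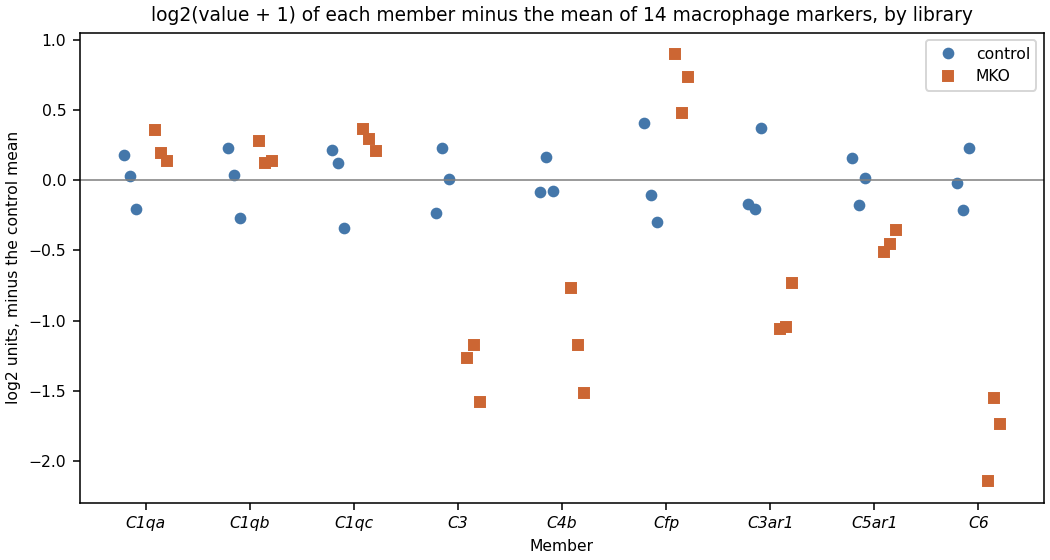
log2(value + 1) of each member minus the mean of 14 macrophage markers in the same library, centred on the control mean, 1 point per library (circles control, squares MKO). The C1q chains overlap between genotypes, Cfp lies higher in MKO (less so against the list's median, 0.26), and the other 5 members lie lower. The marker mean rose in MKO libraries, so a gene unchanged in bulk also lies lower here.

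The rest of the complement system in whole liver also included calls. Of 48 further complement genes listed by role, 43 were measured. Of these 4 were called higher, where 2.96% of all genes tested were, and 0 lower, where 0.0853% were. Their median log2 fold change was -0.10. None of 3 C1 proteases was called; C1s1, which C1q activates through C1r, was the most abundant (log2 fold change -0.10). Of 7 lectin-pathway genes 1 was called: Fcna, a ficolin, went from 323 ± 79.8 to 878 ± 80.6, or 1.46 ± 0.18 on the log2 scale (adjusted p = 0.00502 by limma). Fcna was called in all 6 fits that left out 1 library.

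None of 4 other convertase components, 6 other terminal components, 10 soluble regulators or 6 membrane regulators was called by limma. At an unadjusted limma p under 0.05 the counts over all 43 genes were 7 higher and 5 lower. The share of all genes at that p was not counted. On recovered reads edgeR called 4 higher and DESeq2 5, with 0 lower in both. The most abundant of each were factor B (Cfb, log2 fold change -0.22), C8a of the pore complex (-0.49), vitronectin (Vtn, -0.15) and Cd59a, which blocks pore assembly (-0.17). The median log2 fold change of the 10 soluble regulators was -0.26, and that of the 6 other terminal components -0.25.

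Among 7 other receptors 3 were called higher, all chains of the integrins CR3 and CR4 that bind C3 fragments. Itgam went from 68.5 ± 3.01 to 320 ± 175, or 2.06 ± 0.35 on the log2 scale (adjusted p = 0.0163 by limma). Itgax went from 38.3 ± 6.14 to 106 ± 13.3 (1.44 ± 0.21, limma adjusted p = 0.00899). Itgb2, their shared beta chain, went from 205 ± 50.2 to 785 ± 232 (1.92 ± 0.24, limma adjusted p = 0.00509). Itgam lost the call without control replicate 2 (0.0706) or MKO replicate 2 (0.0814), and Itgax without MKO replicate 3 (0.0570), while Itgb2 was called in all 6 such fits.

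**Figure D3:**
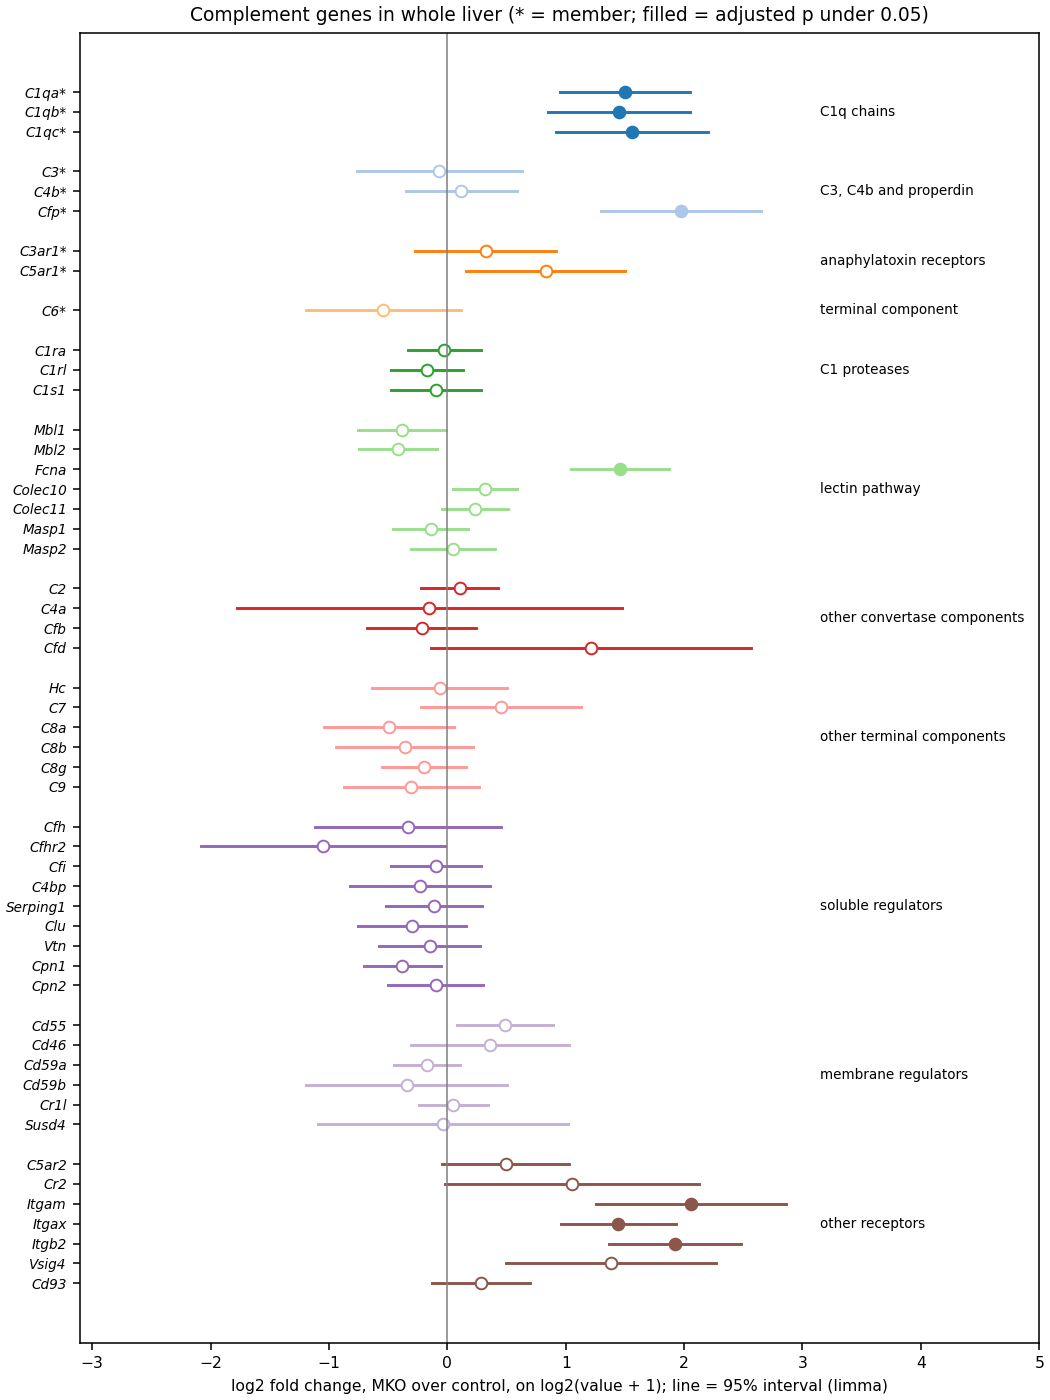
log2 fold change (MKO over control, on log2(value + 1)) of the 9 members (asterisks) and other complement genes in whole liver, all but 1 of those measured, grouped by role, with 95% intervals from limma. Filled points are the 8 genes called: the C1q chains, Cfp, Fcna, Itgam, Itgax and Itgb2.

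In nuclei, the members were read in 13 clusters of the authors' table, each with 1 mean per genotype, so no test was possible and differences have no replicate check. Values are a mean signal, with every column summing to 10000. Clusters are named here from markers that were at least 2-fold enriched over the other clusters. Cluster 2 was macrophage-like (14 of 14 macrophage and 8 of 9 Kupffer cell markers). Clusters 0, 1 and 3 were hepatocyte-like, with 7, 8 and 7 of 14 hepatocyte markers in that order. Cluster 5 was stellate-like (10 of 10), cluster 11 plasmacytoid dendritic-like (8 of 8) and cluster 12 mesothelial-like (7 of 8). Cluster 10 held 8 of 8 markers of dividing cells together with 10 of 14 macrophage and 8 of 9 Kupffer cell markers. A log2 ratio of MKO over control is given only where the larger value reached a floor, the 90th percentile of the non-zero larger values of that cluster.

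Averaged over the 2 pools, the C1q chains, Cfp, both receptors and C6 were highest in the macrophage-like cluster, and C3 and C4b in the mesothelial-like one. In cluster 2, C1qa was at 3.29 in the control and 5.43 in the MKO pool, C1qb at 3.08 and 5.22, and C1qc at 2.94 and 5.22. All 3 chains were higher in the MKO pool, with log2 ratios of 0.70, 0.74 and 0.80. Cfp was at 1.08 and 2.30 there, a plain ratio of 2.13. With the pseudocount used for all ratios (1/10 of the floor) its log2 ratio was 0.996, just short of 2-fold.

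C6 was at 4.01 and 5.35 in cluster 2 (log2 ratio 0.40), C3 at 2.39 and 2.88 (0.25) and C4b at 1.13 and 1.46 (0.33). C3ar1 was at 1.01 and 0.482 and C5ar1 at 1.12 and 1.15, both below the floor of 1.44, so no ratio is given. By the ratios with a pseudocount, 0 of the 7 members above the floor were at least 2-fold higher, where 5.04% of all genes above it were, and 0 at least 2-fold lower, where 4.72% were. The first count became 1, through Cfp, with the floor at the 75th percentile or the median ratio set to 0. Cfp and C4b passed the floor only through the MKO pool. Beside these, the macrophage markers summed to 59.4 and 68.0 in the same columns, Adgre1 (F4/80) was at 7.68 and 10.5, and the Kupffer cell lectin Clec4f at 6.91 and 7.11. Fcna, called in whole liver, was at 0.315 and 0.637 in cluster 2 and at 0.225 and 0.652 in stellate-like cluster 5, below both floors.

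The difference between the pools was wider in the cluster of dividing cells. In cluster 10, C1qa was at 0.765 and 3.56, C1qb at 0.818 and 4.48, and C1qc at 1.09 and 3.79, with log2 ratios of 1.96, 2.20 and 1.63. C6 was at 1.11 and 3.47 there (1.49). These 4 members passed the floor of 2.01 only through the MKO pool, so their count past 2-fold is no result; 11.1% of all genes above that floor were at least 2-fold higher. In the same columns the macrophage markers summed to 23.8 and 44.1, Adgre1 was at 2.77 and 6.78, and Clec4f at 1.89 and 4.33. Sinusoidal endothelial markers summed to 34.4 and 8.64 and markers of dividing cells to 55.0 and 39.3, so the makeup of the cluster differed between the pools. The part of that makeup in the C1q values was not tested.

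**Figure D4:**
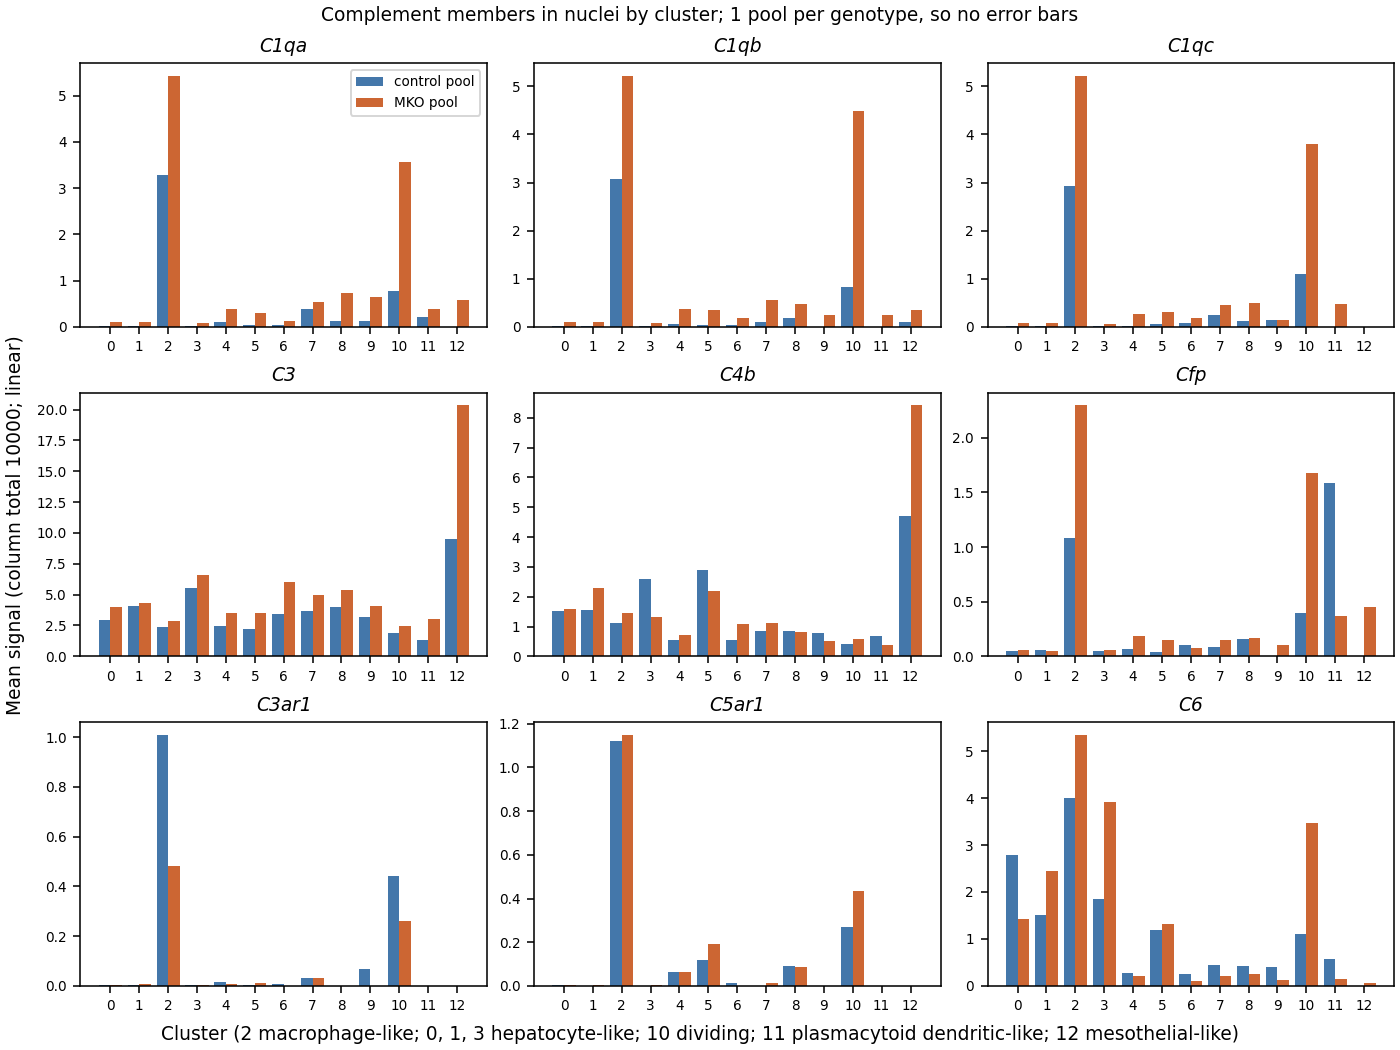
Mean signal (linear axis from 0, column total 10000) of each member in 13 clusters of nuclei, with 1 bar for each genotype's single pool. The C1q chains, C3ar1, C5ar1 and C6 peak in macrophage-like cluster 2 and C3 and C4b in mesothelial-like cluster 12, while Cfp peaks in cluster 11 in the control pool and in cluster 2 in the MKO pool.

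C1q signal in the remaining clusters was low in both pools and higher in the MKO pool. The summed C1q signal was higher in the MKO pool in 13 of 13 clusters, for example 0.0314 and 0.266 in hepatocyte-like cluster 0. C1qc alone was higher in 12, being at 0 in both pools in cluster 12. C3 was also higher in 13. All columns of a genotype come from 1 pool, so the clusters are not replicates. The share of all genes higher in every cluster was not counted. Clec4f, which hepatocytes should lack, moved likewise in cluster 0, from 0.00485 to 0.0556. Alb was present in every column, between 17.0 and 72.6, including the columns of non-hepatocyte clusters.

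C3 was detected in every cluster of both pools. It was between 4.14% and 14.4% of the Alb signal in clusters 0 to 11, and 33.1% and 46.3% in the control and MKO columns of cluster 12. Hc, the gene of complement C5, was by contrast at 5.73 to 13.2 in the hepatocyte-like clusters and at most 0.641 elsewhere. In cluster 12 C3 was at 9.54 and 20.3 (log2 ratio 1.08), the only 1 of 2 members above the floor there that reached 2-fold, where 6.9% of genes did. C4b was at 4.72 and 8.42 in that cluster (0.81). Sinusoidal endothelial markers summed to 0.456 and 6.63 there and markers of dividing cells to 0 and 2.88, so the makeup of cluster 12 differed between the pools. Its control column had 9088 genes above 0, the fewest of all columns. The part of makeup and depth in the C3 and C4b values was not tested.

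C4b was next highest in the stellate-like cluster 5, at 2.88 and 2.18, and among hepatocyte-like clusters it was at 1.51 and 1.58 in cluster 0, 1.56 and 2.30 in cluster 1, and 2.60 and 1.31 in cluster 3. The hepatocyte-like clusters thus showed no common direction for C4b. C6 showed none either, at 2.79 and 1.43 in cluster 0, 1.52 and 2.44 in cluster 1, and 1.85 and 3.93 in cluster 3. In clusters 0 and 3 C4b and C6 differed in opposite directions. In cluster 3, C6 (log2 ratio 1.04) was the 1 member of 3 above the floor in cluster 3 that reached 2-fold, where 3.99% of genes did.

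In the plasmacytoid dendritic-like cluster 11, Cfp was at 1.59 in the control and 0.371 in the MKO pool, both below that cluster's floor of 2.05. C3 was at 1.35 and 3.01 there (log2 ratio 1.05), the single member above the floor, which it passed only through the MKO pool. Of all genes above that floor 5.19% were at least 2-fold higher, and nothing is read from this for C3.

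**Figure D5:**
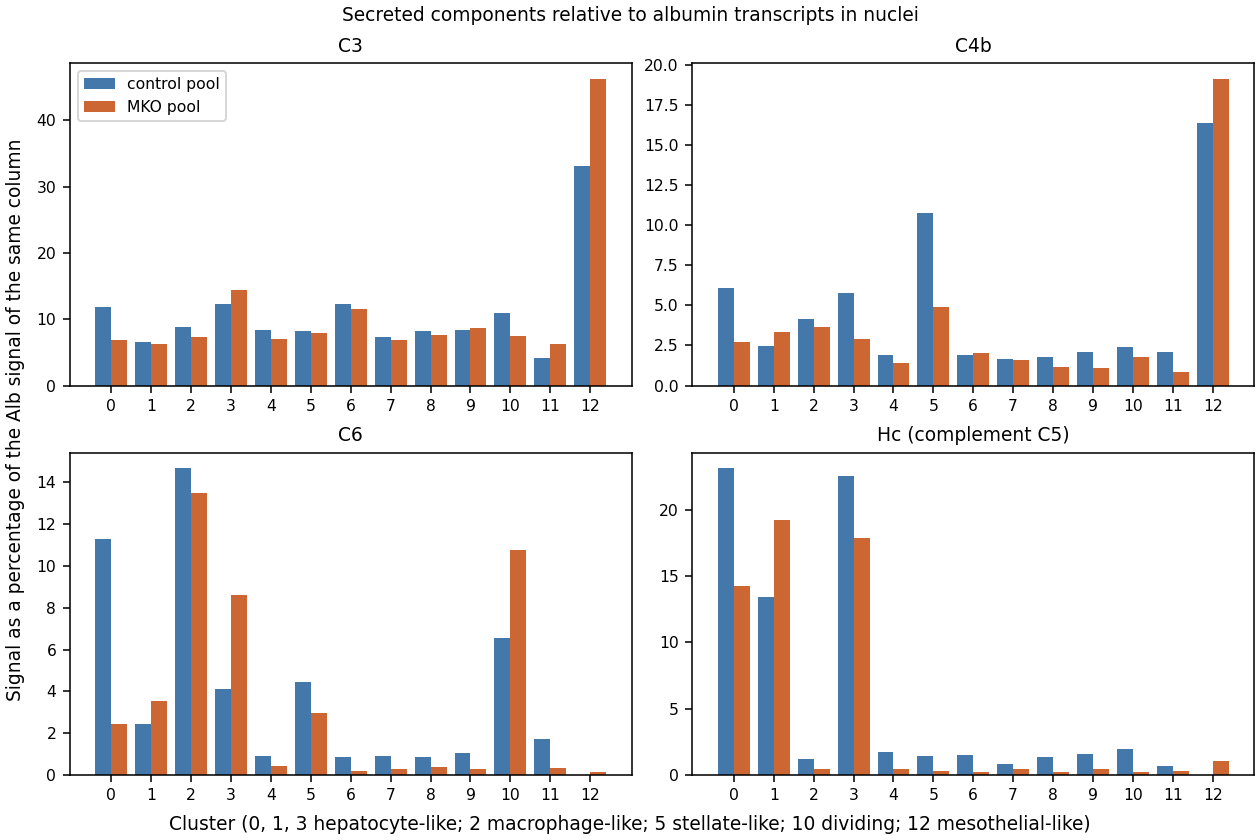
Signal of C3, C4b, C6 and Hc as a percentage of the Alb signal of the same column (linear axes from 0) in 13 clusters of nuclei, 1 bar per genotype's pool. C3 keeps between 4.14% and 14.4% of Alb outside cluster 12, while Hc is high only in clusters 0, 1 and 3 and C6 is highest relative to Alb in cluster 2.

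The patterns of the members over the 26 cluster columns were compared with 2252 genes by Pearson's r of log signals, a description over columns that come from only 2 pools. Closest to C1qa were Klra2 (0.938), Clec4a3 (0.935) and Cd5l (0.934), and the same 3 genes led for C1qb, with Cd5l at 0.970. C1qc was closest to Adgre4 (0.975), Klra2 (0.969) and Adgre1 (0.968). For the scarcer myeloid members, Cfp was closest to Cd300lf (0.920), Fcer1g (0.899) and Fam13b (0.885), C3ar1 to Slc7a8 (0.960), Vsig4 (0.959) and Kcnk13 (0.948), and C5ar1 to E230029C05Rik (0.952), Vsig4 (0.947) and Clec4f (0.934). Cfp, C3ar1 and C5ar1 themselves stayed below the floor that the 2252 genes had to reach in their highest column. C3ar1 was at 0 in 3 control and 5 MKO columns, so its r rests on few columns.

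The first-ranked gene of C3, C4b and C6 had a lower r than that of any other member. The third for Cfp (0.885) was nonetheless below the first for C6 (0.899). C3 was closest to Slc16a1 (0.806), Usp53 (0.803) and Rarres2 (0.772), and C4b to Serping1 (0.877), which encodes the C1 inhibitor, Ppfibp2 (0.853) and Gas1 (0.835). C6 was closest to Pid1 (0.899), Cebpb (0.815) and Slc16a10 (0.798).

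The bulk libraries held 17448117 to 23986319 recovered reads over the listed genes. Tgfbr1 itself was at 737, 810 and 777 in control and 560, 857 and 735 in MKO livers, and did not pass the test (limma adjusted p = 0.816). Whole liver also holds the cells in which the Cre is not active, and no source used here says where along the gene the reads fell, so this level does not check the deletion.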

How the data were processed

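Bulk liver RNA and sorted liver nuclei were measured in control and Tgfbr1 MKO mice. Per the submitters' processing notes, Seurat 4.0.1, Cell Ranger, RSEM 1.3.3, STAR, DESeq2 and FastQC were used, with build mm10. The sources used here do not give settings, strand handling or annotation. In bulk the authors deposited a signal: gene counts over a size factor for each library. A single read was worth 0.963 to 1.22, and 100% of values were whole multiples of that step (tolerance 0.01), so reads could be recovered. Beside them stand the authors' log2 fold changes and p-values, of which only the calls were used. For nuclei the authors deposited cluster means of a signal, 1 column for each cluster of each genotype, and every column sums to 10000. How clusters, filters and doublets were handled, and how many nuclei there were, is unknown, and so is the depth of a mean.

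The bulk test was limma-trend (limma 3.58.1, R 4.3.3) on log2(value + 1), fitted to genotype alone. A mean of at least 1 kept 15249 genes and dropped 34. Changes of low genes come out too small on this scale. limma called 452 genes higher and 13 lower. On recovered reads edgeR 4.0.16 (quasi-likelihood) called 468 and 14, and DESeq2 1.42.0 called 634 and 50. On simulated libraries limma recovered 38 of 67 genes changed 2-fold and 65 of 66 changed 4-fold among 15242 genes, with 10 false calls. Alternatives covered the test, scaling, pseudocount, filters, block, left-out libraries and, in nuclei, the floor (90th percentile) and scaling. The nucleus ratio used a pseudocount of 1/10 of the floor.

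The members and gene lists were chosen with earlier results of these data known. The text names all 9 members, called genes of each complement role list or else its most abundant gene, the most abundant macrophage and hepatocyte marker, and the 3 genes most similar to each member over the cluster columns. Ephb2, Hc, Lyz2, Adgre1, Clec4f, C4a and Tgfbr1 fall outside that rule and were added as references. A complement gene of the role lists is counted but not reported by name here. Sequences come from RefSeq (GRCm38.p6) and gene positions from GENCODE vM21 on mm10.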

Additional observations from a re-analysis of the deposited data

How the results depend on the processing

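Of 304 values recomputed under other settings, 280 were labelled the same. Bulk fold changes were judged by direction and side of the threshold, counts by a set ratio, and nucleus ratios by their side of 2-fold. Values relative to macrophage markers could change label only by direction, because their p cannot go under 0.1. Cfp at 0.26 against the list's median is therefore among the 280. edgeR, DESeq2, TMM scaling, hepatocyte gene scaling, both other pseudocounts, both other filters and the C4a and C4b sum (chosen after seeing the data) each left 4 members called higher. Leaving out 1 library moved that count between 0 and 4. The log2 fold change then ranged from 1.23 to 1.71 for C1qa, 1.15 to 1.69 for C1qb, 1.22 to 1.79 for C1qc, 1.66 to 2.30 for Cfp, -0.23 to 0.11 for C3 and -0.09 to 0.25 for C4b. The C4b value of -0.090 came without control replicate 3, and C3 was at 0.09 without control replicate 2 and 0.11 without MKO replicate 1. Calls over all genes fell from 452 higher to 175 without MKO replicate 2, 181 without MKO replicate 3 and 238 without control replicate 2. Fewer samples were then fitted. The count of other complement genes called lower ranged from 0 to 2, with 2 without MKO replicate 3, and the cause was not tested. Relative to the median of the macrophage list, in place of its mean, C1qa was at -0.21, C1qb at -0.26, C1qc at -0.16 and Cfp at 0.26, and the cause was not tested. In macrophage-like cluster 2, 1 member (Cfp) reached 2-fold with the floor at the 75th percentile (log2 ratio 1.06, from a smaller pseudocount) or with the median ratio set to 0 (1.06).

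Deviations of same-numbered libraries had r of 0.06, -0.03 and -0.11 for numbers 1 to 3, beside -0.11 to 0.15 for differently numbered ones. These values cannot show whether same-numbered libraries shared a batch or processing, and the labels give only the numbers. With the replicate block 4 members were called and 391 genes higher and 17 lower in all. With 3 libraries a group and 1 pool a genotype, limma recovered 5 of 67 simulated 1.5-fold changes in whole liver, and nucleus differences had no error estimate.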

Other observations

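Inflammatory liver transcripts differed widely among the control libraries. None of 14 acute-phase genes, a class that includes secreted plasma proteins of hepatocytes, was called by limma in either direction (0 higher and 1 lower at an unadjusted p under 0.05), and their median log2 fold change was -0.38. Saa1, a serum amyloid gene chosen here after its values were seen, was at 32019, 28635 and 581 in control libraries and 3175, 2944 and 2153 in MKO libraries, so 2 controls lay far above and 1 far below all MKO libraries. C4a showed the same order among controls, at 1700, 766 and 164, with MKO libraries at 514, 390 and 779.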
